A study of Homo sapiens with 3 samples.

Results

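The MYC, MAX and MXD network is a family of transcription factors, most of which share MAX as dimerization partner. Its 10 members here were chosen by name (MYC, MYCN, MYCL, MAX, MXD1, MXD3, MXD4, MXI1, MNT and MLX), and every non-control probe that carries one of these names on the arrays was taken, without regard to its signal. That gave 21 of 58201 probes and 10 of 43317 gene names. Of the 21 probes, 19 were well above background (the extraction software's call that a spot is brighter than its surroundings) on at least 1 array and 17 on all arrays, so 9 of the 10 members were measured, among 22620 genes in all. The exception was MYCN.

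The samples were HCT116 cells, a human line from a colorectal cancer, into which small interfering RNA (siRNA) was brought with a lipid reagent. There was 1 sample each of SMARCA4-KD1 and SMARCA4-KD2, which received siRNA against SMARCA4, and 1 of NC, the scrambled negative control. SMARCA4 is the ATPase of SWI/SNF complexes, which move nucleosomes, and the study asked what its loss does to gene expression in these cells. All cells were of the same line and transfected, so the groups differ by the siRNA alone as far as the labels say, with no time after transfection given.

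The proteins of this network bind DNA as pairs. MYC, MYCN and MYCL pair with MAX, bind the E-box, a short DNA element, and activate genes of ribosome biogenesis, metabolism and the cell cycle. MXD1, MXI1 (also called MXD2), MXD3, MXD4 and MNT pair with the same MAX, bind the same element and recruit the SIN3 and histone deacetylase corepressor, so activators and repressors compete for 1 partner. MLX stands beside MAX and pairs with MondoA (MLXIP) and ChREBP (MLXIPL), which respond to glucose, and with some of the repressors. In colorectal cancer MYC is a well known target of the Wnt pathway, and MXD1 and MXI1 are known for higher levels in cells that stop dividing and differentiate.

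The labels needed a check, because the sample titles and the siRNA protocol name SMARCA4 while the treatment field names PRMT1, from which the knockdown number was taken. The records do not say which siRNA went with which knockdown. The processed signal of SMARCA4 was 3960 (SMARCA4-KD1) and 4129 (SMARCA4-KD2), against 14026 in NC, or 26.6% and 28.8% of NC after scaling. PRMT1, the arginine methyltransferase of the same study, was 0.27 and 0.37 higher than NC on the log2 scale. The arrays therefore fit the SMARCA4 of the titles. Each array carried 62976 spots, between 45.7% and 47.3% of the probes were well above background, and no spot of a gene was saturated. Of 9 epithelial markers, 5 (EPCAM, KRT8, KRT18, KRT19 and CDH1) were well above background on all arrays, and VIL1, LGALS4, CEACAM5 and CDH17 were not on any. Of 7 markers of other cell types, PTPRC, COL1A1 and DES were above background, with signals from 37.0 to 592, and no marker of either list was 1.5-fold apart from NC in either knockdown. The NC array was on another slide than the knockdown arrays, which shared 1, so slide and knockdown cannot be told apart. The number of arrays limits the precision throughout.

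By the brightest probe of each gene, the activator MYCL was at least 1.5-fold higher and the repressors MXD1 and MXD3 at least 1.5-fold lower than in NC in both knockdowns. The activator MYC was past 1.5-fold in SMARCA4-KD1 (1.71-fold) and short of it in SMARCA4-KD2 (1.49-fold), MLX was past it in SMARCA4-KD2 alone, and MAX, MXI1, MXD4 and MNT in neither. A gene is called here when its scaled signal differed at least 1.5-fold (0.58 on the log2 scale), the fold threshold of the study's methods. In SMARCA4-KD1, 2 of the 9 members were lower by that measure (MXD1 and MXD3), where 12.3% of all genes were, and 2 were higher (MYC and MYCL), where 11.2% of all genes were. In SMARCA4-KD2 the same 2 were lower, beside 9.77% of all genes, and 2 were higher (MYCL and MLX), beside 10.1% of all genes. In both knockdowns 2 members were lower (22.2%, beside 8.05% of all genes) and 1 was higher (11.1%, beside 6.35%). Both comparisons use the same NC array, so a high or low NC value moves both. With 9 genes these counts describe the members and are no test of the family. Cell number and RNA per cell enter the signal alike: fewer cells with a transcript and less of it per cell cannot be told apart.

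**Figure D1:**
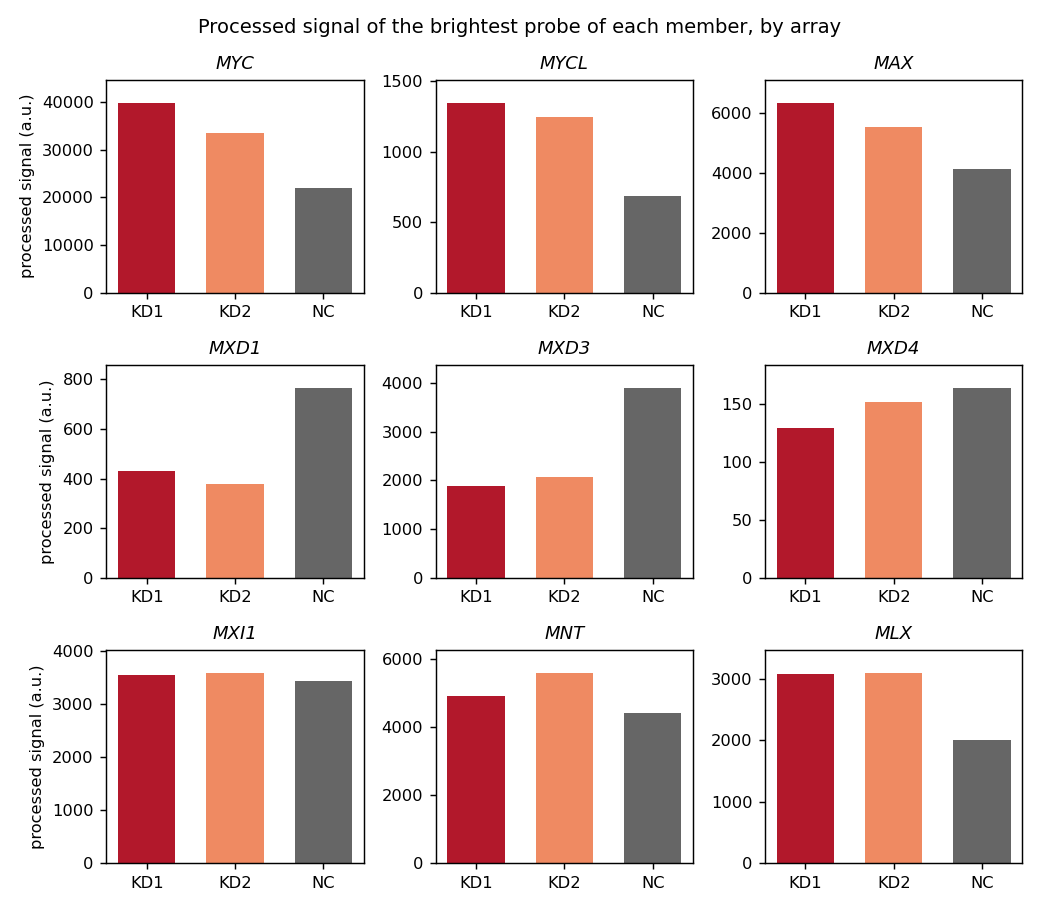
Processed signal (arbitrary units, before scaling between arrays) of the brightest probe of each measured member on the SMARCA4-KD1, SMARCA4-KD2 and NC arrays, 1 bar per array, each panel with its own axis from 0. Before scaling, both knockdown bars stand above NC for MYC, MYCL, MAX, MLX, MNT and MXI1, the last by little, and below NC for MXD1, MXD3 and MXD4. Heights of different genes are not comparable, since probes differ in brightness.

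Among the activators, MYC had the most closely measured probe, since the array carries it in 10 spots. Its processed signal was 39942 (SMARCA4-KD1) and 33563 (SMARCA4-KD2), against 22002 in NC. The single spots ranged from 38916 to 41460 in SMARCA4-KD1 over the 9 spots used, from 31087 to 34797 in SMARCA4-KD2 over 10 and from 21273 to 22570 in NC over 10, so the 3 ranges did not overlap. Spots of 1 array are readings of the same RNA and say nothing of the spread between cultures. A further SMARCA4-KD1 spot at 29200 carried the software's outlier flag and was left out. After scaling, MYC was 0.77 ± 0.20 above NC on the log2 scale in SMARCA4-KD1 (1.71-fold) and 0.58 ± 0.20 in SMARCA4-KD2 (1.49-fold), where ± is the extraction software's error of a difference between arrays. That error was near 0.20 for MYC with its repeated spots and for bright probes read from 1 spot alike. It is therefore no measured spread of the gene, and it holds no spread between cultures. The value of SMARCA4-KD2 fell just short of 1.5-fold, and under quantile normalization the values were 0.67 and 0.44. With normexp background correction it was past 1.5-fold, at 0.61. A second probe with the name MYC gave signals of 17.3, 17.4 and 7.75, of which the SMARCA4-KD2 value alone was well above background, so it gave no fold.

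MYCL, the relative first found in lung cancer, was higher in both knockdowns by about as much in each. Its signal was 1348 (SMARCA4-KD1) and 1246 (SMARCA4-KD2), against 686 in NC (probe at chr1:40361120-40361179, hg19). Both knockdown values lay above NC, by 0.89 ± 0.20 and 0.83 ± 0.20 on the log2 scale, or 1.85-fold and 1.78-fold. The other MYCL probe was below background on all arrays and adds nothing. MYCN, the relative known from neuroblastoma, was not well above background on any array, with signals of 3.51, 3.33 and 3.80, so only an upper limit to its level was measured and no fold is given.

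MAX, the partner that activators and repressors share, was somewhat higher in the knockdowns by all of its 3 probes. The brightest (chr14:65542003-65542062, hg19) gave 6356 (SMARCA4-KD1) and 5533 (SMARCA4-KD2), against 4143 in NC. That is 0.53 ± 0.20 and 0.39 ± 0.20 on the log2 scale (1.45-fold and 1.31-fold), short of 1.5-fold in both. The dimmer probes differed from NC by 0.34 and 0.46 in SMARCA4-KD1 and by 0.19 and 0.63 in SMARCA4-KD2, so their direction was the same and 1 of these 4 values lay past 1.5-fold.

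Of the MXD repressors, MXD1 and MXD3 were past 1.5-fold lower in both knockdowns by their brightest probes, and MXD4 and MXI1 were not. MXD1, which antagonizes MYC in differentiating cells, had a signal of 431 (SMARCA4-KD1) and 379 (SMARCA4-KD2), against 766 in NC (chr2:70169884-70169943, hg19). Its values were 53.0% and 48.4% of NC, a log2 difference of -0.92 ± 0.20 and -1.05 ± 0.20. A second MXD1 probe further upstream, at chr2:70142526-70143302, a stretch longer than the probe itself and so across a splice junction, gave 61.5, 55.0 and 113 and differences of -0.96 and -1.07. The 2 probes, in different parts of the gene, thus differed from each other by less than the software's error in each knockdown.

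MXD3, a repressor known from cells in S phase, was lower to a like degree. Its signal was 1882 (SMARCA4-KD1) and 2066 (SMARCA4-KD2), against 3901 in NC (chr5:176734216-176734275, hg19), or 45.5% and 51.8% of NC, with log2 differences of -1.14 ± 0.20 and -0.95 ± 0.20. The second MXD3 probe was well above background in NC alone, with signals of 11.7, 16.2 and 31.9. Read as a limit against the lowest level well above background, it was at least 2.0-fold lower in SMARCA4-KD1 and at least 2.01-fold lower in SMARCA4-KD2.

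MXD4, a repressor expressed in many resting tissues, had signals of 129 (SMARCA4-KD1) and 151 (SMARCA4-KD2), against 164 in NC. The differences were -0.43 ± 0.21 and -0.15 ± 0.21 on the log2 scale, and its second probe gave -0.21 and 0.03, so no value reached 1.5-fold. MXI1 stayed level by its brightest probe, with 3558, 3592 and 3434 and differences of -0.03 and 0.03. The other MXI1 probes did not give the same picture: one gave 3331, 2750 and 4095, which is -0.38 and -0.61, and the other gave -0.09 and -0.33. For MXI1 the probes thus disagree, and the value of SMARCA4-KD2 was past 1.5-fold by 1 of 3 probes.

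MNT, the MAX-bound repressor found in most proliferating cells, also gave probes that disagree. The brighter one (chr17:2287576-2287635, hg19) gave 4910 (SMARCA4-KD1) and 5583 (SMARCA4-KD2), against 4395 in NC, a log2 difference of 0.07 ± 0.20 and 0.31 ± 0.20. The dimmer one gave 109, 107.2 and 58.8, which is 0.80 ± 0.23 and 0.83 ± 0.23, past 1.5-fold in both knockdowns. Neither MNT probe was below NC as reported, although under quantile normalization the brighter probe's SMARCA4-KD1 value was -0.01.

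MLX, the partner of MondoA and ChREBP, was higher by both of its probes. The brighter one (chr17:40724283-40724342, hg19) gave 3085 (SMARCA4-KD1) and 3100 (SMARCA4-KD2), against 2004 in NC, so that the knockdown values lay close together and above NC. The log2 differences were 0.54 ± 0.20 and 0.60 ± 0.20 (1.45-fold and 1.51-fold), on either side of 1.5-fold. The SMARCA4-KD2 value fell below 1.5-fold with the percentile over probes well above background (0.55), quantile normalization (0.55), normexp (0.54) and the mean over probes (0.47). The dimmer probe gave 0.37 and 0.34.

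**Figure D2:**
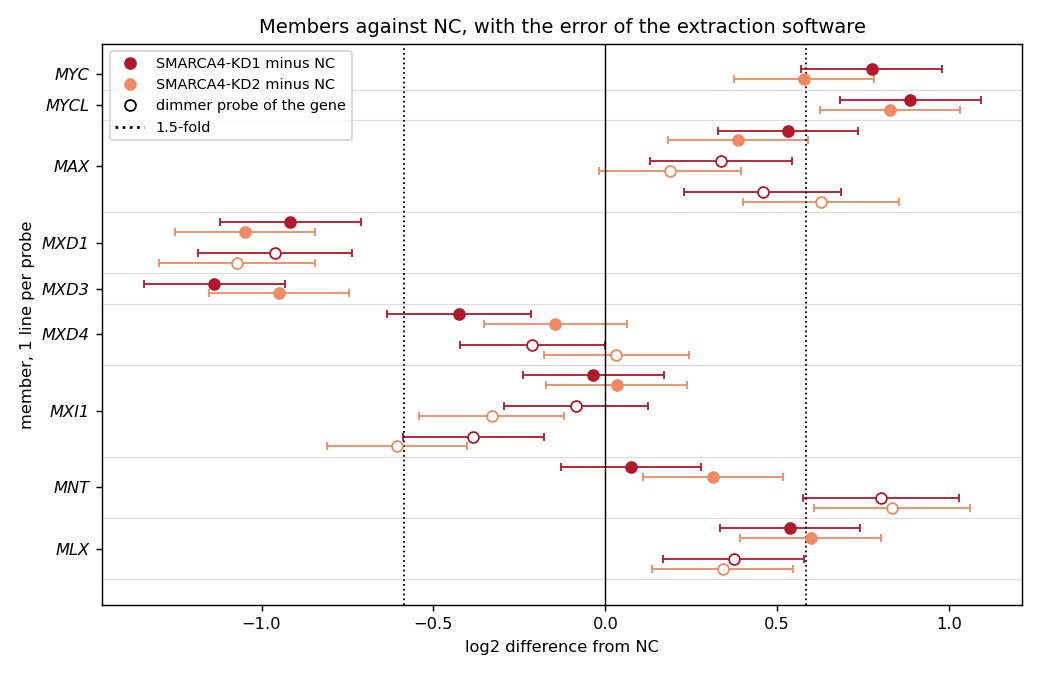
Log2 difference from NC in SMARCA4-KD1 and SMARCA4-KD2 for each member probe that was well above background on all arrays, 1 line per probe, with the extraction software's error as bars and dotted lines at 1.5-fold; filled points are the brightest probe of a gene. Every probe of MXD1 and MXD3 lies past the left line, every point of MYC, MYCL, MAX and MLX lies right of 0, and the probes of MXI1 and MNT spread widely.

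The SMARCA4-KD1 and SMARCA4-KD2 arrays can be compared without NC and lie on the same slide. None of the 9 members (0) was 1.5-fold apart between them, where 6.6% of all genes were. The differences, SMARCA4-KD1 minus SMARCA4-KD2 on the log2 scale, ran from -0.28 for MXD4 to 0.20 for MYC, with 0.13 for MXD1, -0.19 for MXD3 and 0.06 for MYCL.

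Both knockdown arrays were also taken as 2 samples of a group and set against NC with limma over all 22620 genes, which leaves 1 residual degree of freedom. That degree is the difference between the 2 knockdown arrays, so the spread of NC was not measured. No gene was called (0 genes, or 0%) at an adjusted p of 0.05, and 6876 (30.4%) passed 0.05 without adjustment. Of the 9 members, 0 were called and 6 had such an unadjusted p (MYC, MYCL, MAX, MXD1, MXD3 and MLX). The limma adjusted p was 0.107 for MYCL, MXD1, MXD3 and MLX, 0.113 for MYC and 0.125 for MAX, and 0.107 was the smallest over all genes. This count depended on the filter and the scaling: limma called 5176 of 19504 genes when probes had to be above background on all arrays, 2651 after quantile normalization and 3683 after normexp background correction. Under the first of these the 6 members were called, with a limma adjusted p of 0.00312 for MYCL, 0.00323 for MXD1, 0.00188 for MXD3, 0.00928 for MLX, 0.00604 for MYC and 0.0218 for MAX. After normexp the same 6 were called, with a limma adjusted p of up to 0.0495 (MAX), and after quantile normalization 4 (MYCL, MXD1, MXD3 and MLX). The methods' t-test called 0 genes after Benjamini-Hochberg adjustment, 3224 at an unadjusted p under 0.05, and 436 at the methods' own threshold of 0.01 and 1.5-fold.

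Further factors tied to the network gave no common direction. MLXIP (MondoA) gave 4666 (SMARCA4-KD1) and 4132 (SMARCA4-KD2), against 2516 in NC, or 0.81 ± 0.20 and 0.68 ± 0.20 on the log2 scale, but its dimmer probe gave 225, 216 and 274, which is -0.37 and -0.38, so its direction depends on the probe. MLXIPL (ChREBP) differed from NC by -0.16 and -0.22, and MGA, another partner of MAX, by -0.25 and -0.17. Of 3 genes known to be induced by MLX with MondoA or ChREBP, TXNIP, the thioredoxin-binding arrestin, was not above background on any array. ARRDC4, a related arrestin, gave 1130 (SMARCA4-KD1) and 1393 (SMARCA4-KD2), against 877 in NC, or 0.28 and 0.63. PKLR, the liver and red cell pyruvate kinase, was above background in SMARCA4-KD2 alone (24.5), at least 1.35-fold above NC.

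The corepressor that MXD proteins and MNT recruit was read next. None of its 15 measured genes (0) was called in either knockdown, where over all genes 12.3% were lower and 11.2% higher in SMARCA4-KD1 and 9.77% and 10.1% in SMARCA4-KD2, and the medians were -0.12 and -0.05 on the log2 scale, beside -0.0038 and 0.020 over all genes. The values ran from -0.47 for SIN3A, the scaffold, to 0.24 for RBBP7, a histone-binding subunit, in SMARCA4-KD1. Of 17 cofactors of MYC, 0 were called in both knockdowns, 2 were called higher in SMARCA4-KD1 (RUVBL1, a helicase subunit, at 0.72 and 0.53, and CDK9, the elongation kinase, at 0.60 and 0.53) and 1 in SMARCA4-KD2 (KAT2A, a histone acetyltransferase, at 0.53 and 0.67). Over all genes 11.2% and 10.1% were called higher in these knockdowns, so the cofactors called higher were near or under that background. These 3 are named after their values were seen. None of the cofactors (0) was called lower in either knockdown, beside 12.3% and 9.77% of all genes. The medians of the cofactors were 0.19 and 0.22, beside -0.0038 and 0.020 over all genes. SMARCB1, the SWI/SNF subunit known to bind MYC, differed from NC by -0.06 and -0.11.

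Of 13 genes of MYC protein turnover, 2 (15.4%) were higher in both knockdowns, beside 6.35% of all genes, and 0 were lower, beside 8.05%. With the percentile over probes well above background and with quantile normalization these counts were 1 and 1. USP36, a nucleolar deubiquitinase that acts on MYC, gave 3264 (SMARCA4-KD1) and 3019 (SMARCA4-KD2), against 1624 in NC, or 0.92 and 0.86 on the log2 scale. STUB1, a ubiquitin ligase of the chaperone system, gave 0.63 and 0.62. PLK1, the mitotic kinase, gave -0.58 and -0.90 and was named after its value was seen. It was the 1 gene of the list called lower in SMARCA4-KD2, beside 9.77% of all genes. The medians of the list were -0.10 and -0.15, on the other side of NC from the 2 genes called higher.

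Genes known to be induced by MYC lay above NC more often than below it. Of 46 measured, 12 (26.1%) were higher in both knockdowns, beside 6.35% of all genes, and 0 were lower, beside 8.05%. The 12 became 9 with another percentile or normexp and 10 after quantile normalization, where the share over all genes was not counted. In SMARCA4-KD1, those of both knockdowns included, 20 were higher, beside 11.2% of all genes, and 1 was lower, beside 12.3%. The lower one was NCL, nucleolin, at -0.64, and -0.31 in SMARCA4-KD2. In SMARCA4-KD2 12 were higher, beside 10.1% of all genes, and 0 lower, beside 9.77%. The medians were 0.39 and 0.35 on the log2 scale, and 36 of the 46 were above NC in both knockdowns, 7 below in both. Over all genes 41.1% were above NC in both and 39.3% below.

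The 4 that lead by the smaller of their 2 changes serve ribosome and polyamine synthesis. NOLC1, a nucleolar phosphoprotein, gave 14892 (SMARCA4-KD1) and 13413 (SMARCA4-KD2), against 6369 in NC, or 2.20-fold and 2.06-fold. WDR74, a factor of ribosome assembly, gave 6345, 5140 and 2497, or 2.39-fold and 2.01-fold. ODC1, the rate-limiting enzyme of polyamine synthesis, gave 63081, 58005 and 29392, or 2.02-fold and 1.93-fold. In each of these genes both knockdown signals stood well above NC, with SMARCA4-KD1 the higher. POLR1B, a subunit of RNA polymerase I, was 1.09 and 0.92 above NC on the log2 scale, and its second probe gave 1.11 and 0.90. The second WDR74 probe was above background in SMARCA4-KD2 alone, at least 0.48 above NC on the log2 scale, and gave no fold for SMARCA4-KD1. Several abundant genes of the list stayed near NC, among them NPM1 (-0.22 and -0.11), FBL (-0.10 and 0.18) and LDHA (-0.20 and -0.15), also named after their values were seen.

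Genes known to be repressed by MYC went both ways. Of 9 measured, 2 were lower (22.2%, beside 8.05% of all genes) and 3 higher (33.3%, beside 6.35%) in both knockdowns, with medians of -0.35 and -0.33 on the log2 scale. NDRG1, a stress-responsive gene, gave 26827 (SMARCA4-KD1) and 32742 (SMARCA4-KD2), against 64172 in NC, or 2.54-fold and 2.0-fold lower. THBS1, a matrix glycoprotein, was -0.89 and -0.75 by its brighter probe. Its second probe was above background in SMARCA4-KD2 alone, at least 0.28 above NC, so there the direction was the opposite, near background. CEBPA, a factor of differentiation, was 0.83 and 0.75 above NC, and DKK1, a secreted Wnt inhibitor, 0.76 and 0.76. CDKN1A, the p21 inhibitor of cyclin-dependent kinases, was named after its values were seen and gave 1410 (SMARCA4-KD1) and 1079 (SMARCA4-KD2), against 636 in NC, or 1.06 and 0.73. GAS1 was not above background.

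Transcripts beside MYC and MYCN were measured for 5 of the 10 listed. PVT1, the long non-coding RNA next to MYC, gave 7440 (SMARCA4-KD1) and 7302 (SMARCA4-KD2), against 7363 in NC, or -0.07 and -0.04 on the log2 scale by the brightest of its 7 measured probes. The other PVT1 probes are not given here. With the mean over probes, the medians of the 5 transcripts went from -0.07 and -0.27 to -0.59 and -0.25. CCAT1, a colorectal cancer transcript of the same region, gave -0.61 and -0.27, and was named after its values were seen. MYCNOS, antisense to MYCN, gave 195, 163 and 277, or -0.59 and -0.79. It was the 1 of 5 measured transcripts called in both (20% lower, beside 8.05% of all genes, and 0% higher, beside 6.35%). It was measured although MYCN was not.

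The promoters were read for the canonical E-box, the letters CACGTG, which are the same on both strands and overlap no other motif searched. RefSeq promoters (GRCh38.p14), from 250 bases before to 50 after a start, were matched by symbol for 9 of the 10 members. Of these, 3 held the motif (MXD4, MNT and MLX) and MYCL, MYCN, MAX, MXD1, MXD3 and MXI1 did not, beside 8.77% of 27305 genes and 7.26% of 35116 promoters of the same length. Of 37 MYC-induced genes with a promoter in the table, 23 (62.2%) held it. Those 23 had medians of 0.27 and 0.27 on the log2 scale with 5 genes higher in both knockdowns, and the 14 without it had 0.69 and 0.49 with 6. Over all genes the medians were -0.0038 and 0.020, and 6.35% were higher in both. The 2 groups are small, and whether they differ was not tested. A match is a description of the letters, and binding was not measured here. The 250 bases before the start are shown for MXD1 and MXD3, the members lower in both knockdowns, for MLX, a member with the motif, and for ODC1 as a MYC-induced gene (the 1 of its 2 promoters in the table whose 250 bases hold the motif), with the E-box in capitals. MXD1 is at chr2:69914859-69915108 on the plus strand, MXD3 at chr5:177312753-177313002 on the minus strand, MLX at chr17:42566850-42567099 on the plus strand and ODC1 at chr2:10448013-10448262 on the minus strand.
MXD1: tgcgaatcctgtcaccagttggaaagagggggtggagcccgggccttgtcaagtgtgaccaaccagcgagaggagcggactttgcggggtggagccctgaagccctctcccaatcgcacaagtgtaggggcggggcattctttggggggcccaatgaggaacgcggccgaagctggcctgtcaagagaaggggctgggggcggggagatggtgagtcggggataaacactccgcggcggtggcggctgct
MXD3: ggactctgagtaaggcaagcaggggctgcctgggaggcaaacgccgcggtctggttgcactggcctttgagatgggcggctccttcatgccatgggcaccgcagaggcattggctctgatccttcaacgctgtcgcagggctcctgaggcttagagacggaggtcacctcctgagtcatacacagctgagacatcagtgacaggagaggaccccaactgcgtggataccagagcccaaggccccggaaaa
MLX: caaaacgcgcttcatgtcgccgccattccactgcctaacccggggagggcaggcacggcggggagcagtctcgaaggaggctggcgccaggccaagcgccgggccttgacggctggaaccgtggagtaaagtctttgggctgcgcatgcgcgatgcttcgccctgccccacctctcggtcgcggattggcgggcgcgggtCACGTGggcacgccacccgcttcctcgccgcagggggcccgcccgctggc
ODC1: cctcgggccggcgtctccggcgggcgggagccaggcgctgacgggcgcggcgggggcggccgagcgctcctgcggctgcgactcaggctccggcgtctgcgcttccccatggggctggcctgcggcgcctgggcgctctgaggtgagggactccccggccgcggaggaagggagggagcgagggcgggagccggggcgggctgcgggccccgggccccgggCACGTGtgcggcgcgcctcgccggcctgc
The MLX motif starts at base 201 and the ODC1 motif at base 222 of the stretch shown. The G and C content was 64.4% for MXD1, 60.4% for MXD3, 71.2% for MLX and 82.4% for ODC1.

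Across the 19496 other genes above background on all arrays, those whose pair of differences lay nearest to MYC were ABCC6 (0.77 and 0.58), PRR22 (0.78 and 0.59) and COMMD2 (0.76 and 0.58), and 246 genes lay within 0.1 of it on the log2 scale. Nearest to MXD3, which leads the members by the smaller of its 2 changes (MXD1 differed more in SMARCA4-KD2), were SUGP2 (-1.13 and -0.96) and a pair of transcripts listed by Ensembl identifier alone, and 77 genes lay within 0.1. Likeness over 2 differences that share the NC array is a weak measure.

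The values of the members moved little under most other ways of processing, but several of these could not move them. Over 8 alternatives, 139 of 144 recomputed differences moved by less than the software's error, and none of the called differences changed sign. Each member's brightest probe was well above background on all arrays, so the filters and the missing floor left every value as reported. The series-level table holds nearly the same intensities as the scanner files. Only the other percentile, quantile normalization, normexp and the mean over probes could thus move the values much. MXD1 ran from -0.97 to -0.74 in SMARCA4-KD1 and from -1.09 to -0.85 in SMARCA4-KD2, and MXD3 from -1.20 to -1.07 and from -1.01 to -0.92. MYCL ran from 0.78 to 0.89 and from 0.71 to 0.83. The other 5 came from the mean over the probes and were those of MYC and MNT in both knockdowns and MXI1 in SMARCA4-KD2. For MYC that mean was 0.33 and 0.26, and its values were otherwise 0.67 to 0.80 and 0.44 to 0.61. The MYC mean takes in the dim probe, whose NC signal was raised to the lowest level well above background and which gives no fold. It is thus no second reading of the change of MYC. The sign of MXI1 turned in both knockdowns, from 0.03 to -0.30 in SMARCA4-KD2 with the mean over the probes, and that of MNT turned in SMARCA4-KD1, at -0.01.

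**Figure D3:**
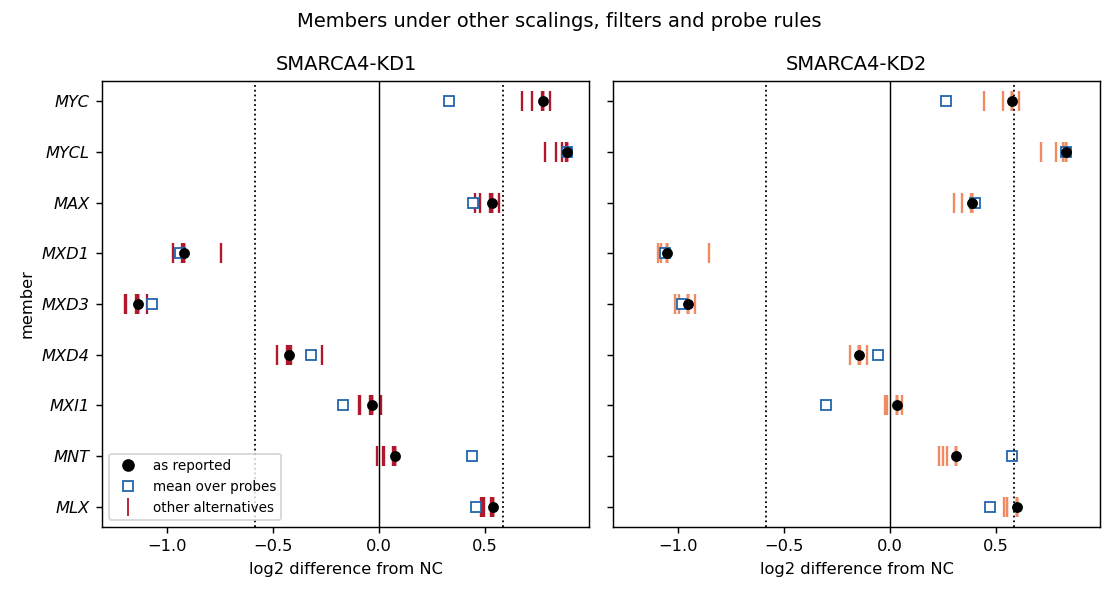
Log2 difference from NC of each member as reported (black), with the average of its probes above background on 1 array or more (open squares) and under 7 other scalings, filters and sources (ticks), with dotted lines at 1.5-fold. MXD1 and MXD3 stay left of the line and MYCL right of it in both knockdowns, while MXI1 and MNT move with the mean over probes, as does MYC through a probe near background.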

How the data were processed

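RNA of 3 HCT116 samples (NC, SMARCA4-KD1 and SMARCA4-KD2, 1 each) was hybridised to 1-colour (Cy3) Agilent arrays. The authors deposited spot intensity extracted with Agilent Feature Extraction 10.7.1.1 (background-subtracted and detrended, hg19 design, no scaling between arrays), with the software's 0 or 1 flags and other columns, and a series-level table in intensity, which matched the scanner files within 0.1% for all but 1 of 57901 single-spot probes. Such extraction leaves differences of labelling between arrays in the values.

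Flagged spots were dropped, repeated spots averaged as log2, and the array's 75th percentile over non-control probes subtracted. Values not well above background were raised to the lowest level that was. A probe entered when 1 array or more showed it above background, and each gene was read by its brightest probe. The differences with NC were called at 1.5-fold. limma 3.58.1 (R 4.3.3, intensity trend, Benjamini-Hochberg over all genes) treated both knockdowns as 1 group. Whether samples came from separate cultures is not given. The limma p-values rest on the spread between the knockdown arrays alone, which shared a slide. No spread of NC or between slides enters them. The limma step was tested on simulated data. Python 3.11.15, numpy 2.4.6, pandas 2.3.3 and matplotlib 3.10.9 were used. The members and gene lists were chosen with earlier results of these data known. Named were all members, the further factors and MLX targets, SMARCA4 and PRMT1, up to 4 genes per other list past 1.5-fold in both knockdowns that lead by the smaller of their 2 changes, and the 3 nearest in pattern to MYC and to MXD3. CIP2A was read under its older name KIAA1524. The methods name a second NC sample and a PRMT1 knockdown, not analysed here. The t-test of the methods was run here with both knockdowns as 1 group against 1 NC array. Its counts are therefore not comparable with the study's, which were made for each knockdown. The siRNA sequences are not reported here.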

Additional observations from a re-analysis of the deposited data

How the results depend on the processing

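With 1 array per condition, no spread between cultures is known, slide and knockdown cannot be told apart, and the shared NC array enters every difference. Dim probes (signals near the lowest level well above background, 16.2 to 17.7) give limits only. No paired analysis was possible because each group holds 1 sample.

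The 8 alternatives changed the percentile, the normalization (quantile), the background correction (normexp), the filter (on all arrays, or none), the floor (none), the probe rule (mean over probes) or the source (series-level table). The number of members called in each knockdown stayed at 3 or 4 under them and in both at 3 or 4, though the filters and the missing floor left every member's value as reported. At 2-fold, 1 member was called in SMARCA4-KD1 (MXD3), 1 in SMARCA4-KD2 (MXD1) and 0 in both, and of the lists 0 further factors, 0 turnover genes, 2 MYC-induced genes, 1 MYC-repressed gene and 0 transcripts near MYC or MYCN were called in both knockdowns. With the mean over probes, 0 further factors and 2 transcripts near MYC or MYCN were called, with normexp 0 of those transcripts, and without the floor 1 MLX target. Over all genes, the share called by fold was not counted at 2-fold or under the other alternatives, so these counts stand without it. limma called 5176 genes with the filter on all arrays, 2651 after quantile normalization, 3683 after normexp and 6876 at an unadjusted p under 0.05, against 0 as reported, with 0 also without the trend and by the methods' t-test. The cause was not tested. The other totals of the lists, both directions together, stayed within 1.5 times the reported ones. Within that, the MYC-induced genes called higher went from 12 to 9 (another percentile, normexp), 10 (quantile normalization) and 13 (series-level table, no floor). By direction the turnover genes went from 2 higher and 0 lower to 1 and 1 (another percentile, quantile normalization), to 2 and 1 (series-level table) and to 3 and 0 (no floor). The MYC-repressed genes called lower went from 2 to 1 with the mean over probes.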
